A study of Mus musculus with 8 samples.

Results

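The nuclear genes for subunits of respiratory complexes II to V, with cytochrome c, were examined in gastrocnemius muscle with and without Gcn5. They were taken from a list of 40 symbols, and each was read from the transcript cluster (the array's unit for a gene) annotated to that gene alone, the brightest one where there were several. Of the 40, 39 were measured among the 19938 genes in the table. All 4 listed genes of complex II, all 10 of complex III with cytochrome c, 10 of 11 of complex IV and all 15 of complex V were among them. Cox7c was seen only in clusters that also carried the symbol of another gene. Atp5f1 is named Atp5pb, its newer symbol, on the array, and stays Atp5f1 here.

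Whole-transcript RNA was measured on Affymetrix arrays, 1 array per animal, in 8 male mice aged 6 months, kept on chow and fasted for 5 h. The gastrocnemius is a calf muscle made mostly of fast fibres. In 4 knockout animals (Gcn5skm-/-, genotype HSAcre Tg/0 and Gcn5 L2/L2) Cre was present, and 4 wild-type animals (Gcn5skm+/+, genotype HSAcre 0/0 and Gcn5 L2/L2) had none. Both groups thus carried the floxed L2 alleles and only the knockouts had Cre, whose own effect cannot be told apart from the loss of Gcn5. The human skeletal actin promoter that drives Cre acts in muscle fibres, so other cells of the tissue keep the gene. Whole muscle was measured, in which fewer cells of a type and less RNA per cell cannot be told apart. The number of arrays limits the precision.

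The respiratory chain of the inner mitochondrial membrane passes electrons from reduced cofactors to oxygen and pumps protons, and the proton gradient drives ATP synthesis. Complex II oxidises succinate and hands the electrons to ubiquinone, complex III passes them to cytochrome c, complex IV passes them to oxygen, and complex V is the ATP synthase. Slow, oxidative fibres hold more of these complexes than fast, glycolytic ones, and several subunits of complex IV have a form made in striated muscle beside one made in most tissues.

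The promoters of 4 members are shown because 3 of them (Sdha, Cox8b and Atp5j2) belong to the genes whose arrays separated by genotype and the fourth, Cox7a1, is a muscle isoform that did not separate. Each is the stretch of 250 bases before the annotated start, 5′ to 3′ on the gene's strand, from RefSeq's mouse assembly GRCm38.p6. Sdha lies on the minus strand (chr13:74350241-74350490), Cox7a1 on the plus strand (chr7:30183921-30184170), Cox8b on the minus strand (chr7:140900447-140900696) and Atp5j2 on the minus strand (chr5:145191542-145191791). Capitals mark matches to the motifs named next, the string of nuclear respiratory factor NRF-1 in Sdha and the myogenic E-box in Cox8b.
Sdha: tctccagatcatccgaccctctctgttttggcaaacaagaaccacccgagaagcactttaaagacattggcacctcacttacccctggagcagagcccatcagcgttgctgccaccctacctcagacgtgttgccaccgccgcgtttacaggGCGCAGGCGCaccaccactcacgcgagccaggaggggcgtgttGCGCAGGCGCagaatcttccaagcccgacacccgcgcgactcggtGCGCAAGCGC
Cox7a1: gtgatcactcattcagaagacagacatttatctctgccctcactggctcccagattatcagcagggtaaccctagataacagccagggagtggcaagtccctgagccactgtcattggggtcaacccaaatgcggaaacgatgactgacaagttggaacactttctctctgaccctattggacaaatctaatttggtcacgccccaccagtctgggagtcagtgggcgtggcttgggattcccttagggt
Cox8b: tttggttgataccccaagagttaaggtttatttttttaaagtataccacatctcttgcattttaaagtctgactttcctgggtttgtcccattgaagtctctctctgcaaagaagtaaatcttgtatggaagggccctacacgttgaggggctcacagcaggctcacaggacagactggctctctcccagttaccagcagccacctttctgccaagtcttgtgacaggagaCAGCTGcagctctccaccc
Atp5j2: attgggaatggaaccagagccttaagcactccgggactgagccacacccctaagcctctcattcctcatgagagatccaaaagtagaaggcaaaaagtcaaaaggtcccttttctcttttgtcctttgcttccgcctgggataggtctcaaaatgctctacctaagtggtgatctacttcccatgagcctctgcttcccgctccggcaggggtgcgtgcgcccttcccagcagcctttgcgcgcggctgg

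Both strands were searched for GCGCANGCGC (NRF-1), AAGGTCA (the estrogen-related receptors, ERR), CCGGAAG (ETS factors, among them GABP), AAGATGG (YY1) and CAGCTG (myogenic E-box). RefSeq promoters were matched for 30 of the 39 genes, 33 promoters in all. The Sdha promoter held 3 matches to NRF-1, beginning 98, 55 and 10 bases before the start. Cox8b held an E-box beginning 19 bases before the start, and Cox7a1 and Atp5j2 held none of the 5 strings. The NRF-1 string was present in 18.2% of the members' promoters and in 3.74% of all 32851 promoters of that length, and the genes were Sdha, Sdhd, Atp5c1, Atp5g2, Atp5h and Atp5k. The ETS string was present in 24.2% against 6.91%, in 8 genes (Uqcrh, Uqcr11, Cox6b1, Sdhd, Atp5e, Atp5h, Atp5j and Atp5l). ERR was matched in 6.06% against 4.08% (Atp5g3 and Atp5l), YY1 in 3.03% against 4.49% (Atp5j) and the E-box in 6.06% against 13.0% (Cox8b and Atp5b). No match overlapped a match to another of these strings in the members. The median GC content was 54.8% over the members' promoters and 52.4% over all promoters. A match is a string of letters and not a measured binding site.

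The comparison of knockout with wild type asks which transcripts differ in muscle whose fibres lack Gcn5, the acetyltransferase encoded by Kat2a. Kat2a itself read 6.50, 6.46, 6.45 and 6.43 in wild types 1 to 4 and 5.81, 5.84, 5.79 and 5.73 in knockouts 1 to 4 (log2 expression). All 4 knockouts lay below all 4 wild types, with a difference of -0.66 (SE 0.08, limma adjusted p = 0.0319). The fold was 0.631. Without single arrays the adjusted limma p rose as far as 0.137, and it was 0.1125 with the replicate number as a block. With the mean of macrophage markers as a covariate it was 0.5375, at a difference of -0.61. That mean did not overlap between the genotypes, so such a fit cannot tell it apart from genotype. Whether the probes lie in the recombined exons was not tested. The muscle fibre markers read 11.74 to 12 on average over 8 genes, so the tissue carried its defining transcripts.

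No subunit gene was called different between the genotypes. None of the 39 passed the threshold (limma, Benjamini-Hochberg adjusted p under 0.05, smallest 0.876), beside 3 of all 19938 genes, or 0.015%. None of the 39 had an unadjusted limma p under 0.05 either, against 5.73% of all genes. Differences, given throughout as knockout minus wild type on the log2 scale, lay between -0.09 and 0.13, and 36 of 39 were within 0.1 of 0. They were above 0 for 23 genes and below 0 for 16, with a median of 0.02 beside -0.01 over all genes. The 95% intervals of the 39 differences all lay between -0.35 and 0.31, that is, between folds of 0.786 and 1.24. Every interval held 0. By mean level the members' median stood at percentile 99.0 of all genes and the lowest member at 90.6. Whether differences are flattened so near the top of the scale was not tested.

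**Figure D1:**
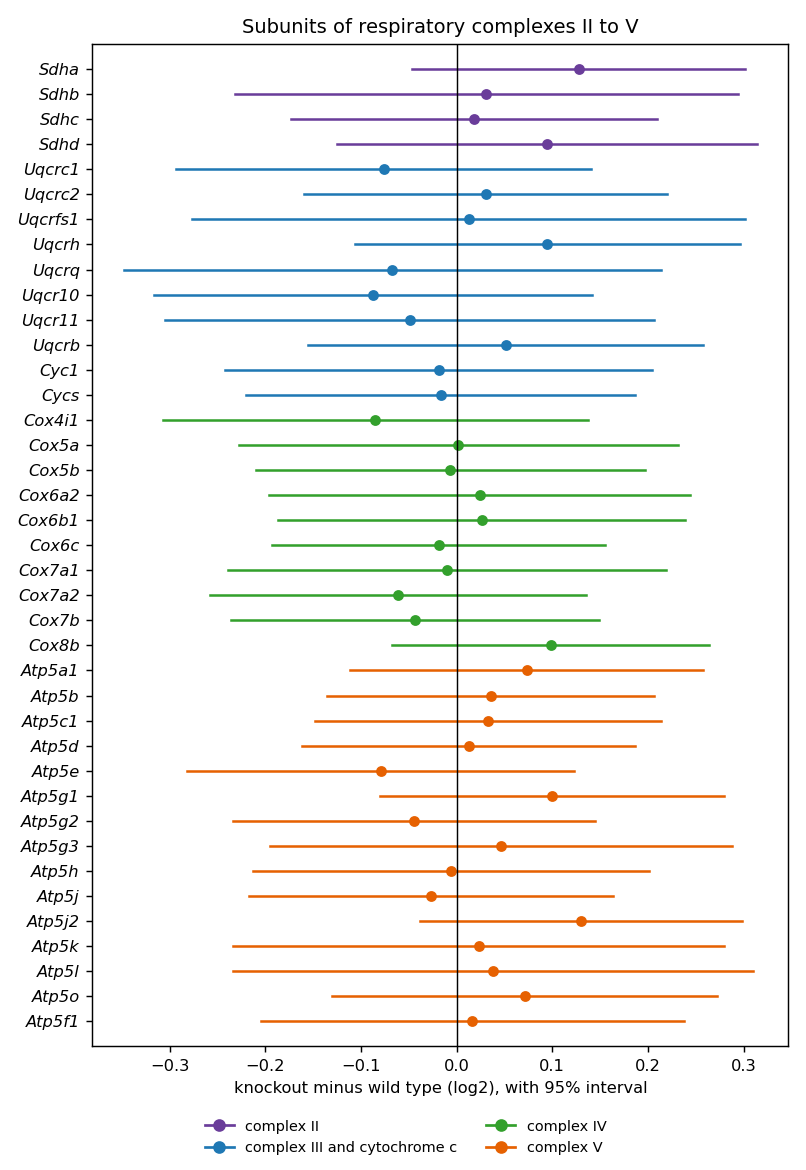
Difference of each of the 39 measured subunit genes (knockout minus wild type, log2, x axis) with its 95% interval from limma, n = 4 arrays in each group, coloured by complex. All 39 intervals include 0, and the point estimates run from -0.09 (Uqcr10) to 0.13 (Atp5j2).

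The arrays of the 2 genotypes did not overlap for 3 of the 39 genes, all higher in knockout, which is 7.69%. Over all genes the arrays did not overlap for 3.62% in either direction and for 1.48% with knockout higher. The 3 genes were Sdha in complex II, Cox8b in complex IV and Atp5j2 in complex V. None of them passed the adjusted threshold, and the folds were between 1.07 and 1.09.

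Complex II has 4 subunits, all encoded in the nucleus. Its differences were all above 0, between 0.02 and 0.13 (median 0.06). The median depended on single arrays and was 0.0037 without wild type 1, 0.0153 without knockout 3, 0.105 without wild type 4, 0.0965 without knockout 1 and 0.127 without knockout 4, and it was 0.166 with the macrophage markers as a covariate. Sdha, the flavoprotein that oxidises succinate, read 10.46, 10.54, 10.59 and 10.54 in wild types 1 to 4 and 10.63, 10.69, 10.73 and 10.60 in knockouts 1 to 4. The lowest knockout stood just above the highest wild type. The means were 10.53 ± 0.06 and 10.66 ± 0.06 (SD, n = 4), a difference of 0.13 (SE 0.08, 95% interval -0.05 to 0.30, limma adjusted p = 0.876). Sdhb, the iron-sulfur subunit, read 9.41, 9.72, 9.70 and 9.80 in wild type and 9.58, 9.82, 9.90 and 9.45 in knockout. Wild type 1 and knockout 4 were both low, the groups overlapped, and the difference was 0.03 (limma adjusted p = 0.982). The membrane anchor Sdhd read 8.68, 8.81, 8.79 and 8.98 in wild type and 8.82, 8.96, 9.10 and 8.76 in knockout. Its difference was 0.09 (SE 0.10, limma adjusted p = 0.929), with knockout 3 the highest array, and ran from 0.03 without knockout 3 to 0.15 without wild type 4. The other anchor, Sdhc, differed by 0.02.

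In complex III and cytochrome c, 4 genes lay above 0 and 6 below, with a median of -0.02 and a range from -0.09 to 0.09. Uqcrh, the hinge protein that helps cytochrome c dock, read 9.84, 10.06, 9.88 and 10.05 in wild type and 9.96, 10.06, 9.99 and 10.20 in knockout. Knockout 4 was the highest array, the only member for which it was, and the difference of 0.09 did not pass (SE 0.09, limma adjusted p = 0.923). Uqcr10, a small subunit, read 8.60, 9.001, 8.70 and 8.98 in wild type and 8.75, 8.81, 8.70 and 8.67 in knockout. Wild types 2 and 4 stood above every knockout and wild type 1 below, and the difference was -0.09 (SE 0.11, limma adjusted p = 0.932). The core protein Uqcrc1 read 10.14, 10.32, 10.24 and 10.40 in wild type and 10.06, 10.36, 10.29 and 10.09 in knockout. Knockouts 1 and 4 lay below every wild type and wild type 4 above every knockout, while the other 5 arrays fell in the shared range (difference -0.08, SE 0.10, limma adjusted p = 0.936). The catalytic subunits Uqcrfs1 (the Rieske iron-sulfur protein) and Cyc1 (cytochrome c1) differed by 0.01 and -0.02. Uqcrfs1 spread the most of all 39 genes, from 7.42 in wild type 1 to 8.04 in wild type 4, within 1 genotype. Cycs, the mobile electron carrier between complexes III and IV, read 11.40, 11.64, 11.50 and 11.36 in wild type and 11.41, 11.51, 11.58 and 11.35 in knockout, a difference of -0.02. The other core protein, Uqcrc2, differed by 0.03, and the small subunits Uqcrb, Uqcr11 and Uqcrq by 0.05, -0.05 and -0.07.

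In complex IV, 4 of 10 genes lay above 0 and 6 below, with a median of -0.01 and a range from -0.08 to 0.10. Cox8b, the form of subunit 8 made in striated muscle of mice, read 11.73, 11.75, 11.77 and 11.77 in wild type and 11.87, 11.88, 11.85 and 11.81 in knockout. The groups were separate but close, since the means were 11.76 ± 0.02 and 11.85 ± 0.03 (SD, n = 4). The difference was 0.10 (SE 0.08, 95% interval -0.07 to 0.26, limma adjusted p = 0.897). That SE was larger than these SDs alone would give, because limma draws the spread of each gene towards that of all genes.

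The other muscle isoforms, Cox7a1 and Cox6a2, had differences close to 0. Cox7a1 read 10.75, 11.01, 10.90 and 11.05 in wild type and 10.81, 11.04, 11.07 and 10.74 in knockout. Both genotypes had high and low arrays, and the difference was -0.01 (limma adjusted p = 0.992). Cox6a2 read 10.71, 10.71, 10.93 and 11.05 in wild type and 10.82, 10.87, 11.02 and 10.80 in knockout, with all 4 knockouts inside the wild-type range. Its difference was 0.02 (limma adjusted p = 0.983).

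Of the forms made in most tissues, Cox7a2 read 8.59, 8.93, 8.75 and 8.81 in wild type and 8.72, 8.75, 8.69 and 8.69 in knockout. The knockouts sat closely inside the wild-type range, and the difference was -0.06 (SE 0.09, limma adjusted p = 0.940). Cox8a, which is not among the 40, read 7.84, 7.62, 7.94 and 7.81 in wild type and 7.72, 7.75, 7.998 and 7.74 in knockout, with a difference of 0.00 (limma adjusted p = 0.999). Cox6a1, likewise outside the 40, read 5.86, 6.16, 5.98 and 5.96 in wild type and 5.53, 5.80, 5.91 and 5.74 in knockout. Its 2 groups overlapped only through knockout 3 and wild type 1, and the difference of -0.25 did not pass after adjustment (SE 0.10, limma unadjusted p = 0.0337, adjusted p = 0.861).

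**Figure D2:**
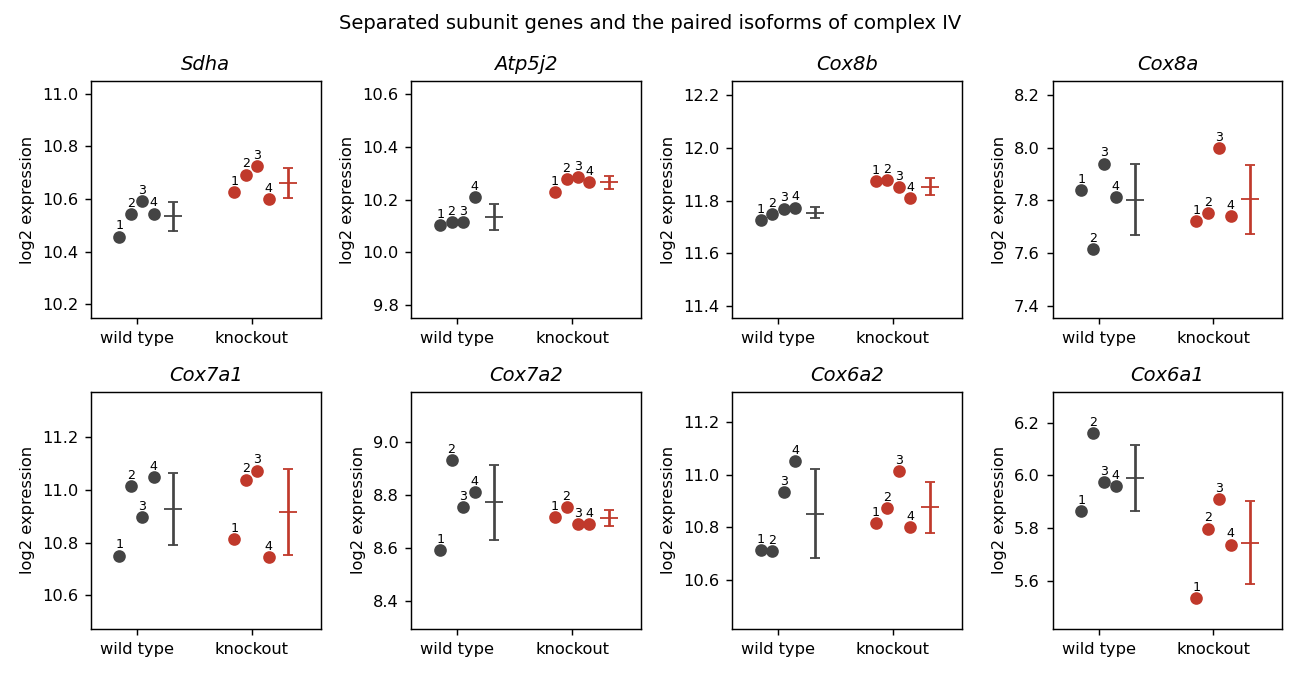
Log2 expression in each array (points, numbered by replicate) with the group mean and SD (n = 4) for the 3 subunit genes whose groups did not overlap and for the muscle and ubiquitous forms of the complex IV pairs; each panel spans the same number of log2 units on its y axis, which does not start at 0. The groups of Sdha, Atp5j2 and Cox8b do not overlap, though the lowest knockout lies close above the highest wild type in each, and those of the other 5 genes overlap.

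The log2 ratio of a muscle form to its partner within each array takes out what both share, and 3 such pairs were compared. Only its change between genotypes has a meaning here, since probes of different genes differ in brightness. With 4 arrays on each side, the smallest two-sided p of the exact permutation test is 0.0286. The ratio of Cox6a2 to Cox6a1 was 4.85, 4.55, 4.96 and 5.09 in wild type and 5.28, 5.08, 5.11 and 5.07 in knockout. It was higher in knockout by 0.27 (SE 0.13, 95% interval -0.04 to 0.58), with an exact permutation p of 0.0857, or 0.257 adjusted over the 3 pairs. Without wild type 2, the array with the lowest ratio, the difference was 0.165, and without the other arrays it was 0.22 to 0.35. Wild type 4 lay among the knockouts, and 2 of 4 knockouts stood above every wild type. The ratio of Cox8b to Cox8a differed by 0.10 (95% interval -0.13 to 0.33, exact permutation p = 0.371, adjusted 0.557; 0.157 without wild type 2, 0.163 without knockout 3, 0.0564 without wild type 3 and 0.0631 without knockout 1), and that of Cox7a1 to Cox7a2 by 0.05 (95% interval -0.15 to 0.26, exact permutation p = 0.600, adjusted 0.600). None of the 3 ratios thus passed, and the intervals leave room for shifts of up to 0.58 log2 units in the first.

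Among the remaining subunits of complex IV, Cox4i1, the largest of those encoded in the nucleus, read 8.97, 9.39, 9.11 and 9.20 in wild type and 9.03, 9.14, 9.19 and 8.98 in knockout. The difference was -0.08 (SE 0.10, limma adjusted p = 0.932), and wild type 2 alone stood above every knockout by more than 0.1. Cox5a, Cox5b, Cox6b1, Cox6c and Cox7b lay between -0.04 and 0.03. Cox6c had the narrowest spread of the 39, 0.131 log2 units over all 8 arrays.

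In complex V, 11 of 15 genes lay above 0 and 4 below, with a median of 0.03 and a range from -0.08 to 0.13. Atp5j2, which encodes subunit f of the membrane part, read 10.10, 10.11, 10.11 and 10.21 in wild type and 10.23, 10.28, 10.29 and 10.27 in knockout. Wild type 4 stood apart from its group and just under the lowest knockout. The difference was 0.13 (SE 0.08, 95% interval -0.04 to 0.30, limma adjusted p = 0.876), the largest estimate among the 39. Atp5g1, 1 of 3 genes for the proton-carrying c ring, read 11.79, 11.81, 11.82 and 11.95 in wild type and 11.93, 11.94, 12.03 and 11.87 in knockout, so that wild type 4 alone reached the knockout values. It differed by 0.10 (SE 0.08, limma adjusted p = 0.904), while Atp5g2 and Atp5g3, whose products enter the same ring, differed by -0.04 and 0.05.

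The genes of the catalytic head of complex V differed by no more than 0.08 in either direction. Atp5a1, the alpha subunit, read 10.69, 10.85, 10.86 and 10.83 in wild type and 10.86, 10.96, 10.94 and 10.78 in knockout, a difference of 0.07 (SE 0.09, limma adjusted p = 0.931). The beta subunit Atp5b, which carries the active sites, differed by 0.04 and spread over 0.140 log2 units in all 8 arrays. The central stalk genes Atp5c1, Atp5d and Atp5e differed by 0.03, 0.01 and -0.08. The genes of the peripheral stalk, which holds the head against rotation, were Atp5o at 0.07, Atp5f1 at 0.02, Atp5h at -0.01 and Atp5j at -0.03. The small membrane subunits Atp5k and Atp5l differed by 0.02 and 0.04.

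Of the 39 genes, 11 had more than 1 cluster, and the clusters of 4 of them differed in sign. Atp5l read 0.04 in the cluster used and between -0.10 and -0.02 in its 5 others. Uqcr11 read -0.05 in the cluster used and 0.16 in the other. Atp5h and Cox5b changed sign between values within 0.04 of 0. The directions of these 4 genes therefore depend on the cluster chosen.

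By their median, the 39 genes varied more between animals of 1 genotype than between genotypes, and most of them were high or low in the same arrays. Each gene's value was set against its own mean over the 8 arrays, and the median of these deviations was taken in each array. It was -0.15, 0.07, -0.03 and 0.07 in wild types 1 to 4 and -0.05, 0.07, 0.08 and -0.07 in knockouts 1 to 4. The means were -0.01 ± 0.10 in wild type and 0.01 ± 0.08 in knockout (SD, n = 4), so the groups differed by far less than their spread. In wild type 1 all 39 genes lay below their own means, and 28 of them had their lowest value there. In knockouts 2 and 3, 33 and 34 genes lay above, and in wild types 2 and 4, 30 each. In wild type 3 and knockouts 1 and 4, 13, 9 and 8 did. The complexes were alike in some arrays and not in others. In knockout 2, all 4 genes of complex II, all 10 of complex III with cytochrome c, 7 of 10 of complex IV and 12 of 15 of complex V lay above their means, and in knockout 4 these counts were 1, 2, 2 and 3. In wild type 2 they were 2, 10, 8 and 10, so that complex II stood lower there than complex III, and in knockout 1 they were 1, 0, 2 and 6.

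**Figure D3:**
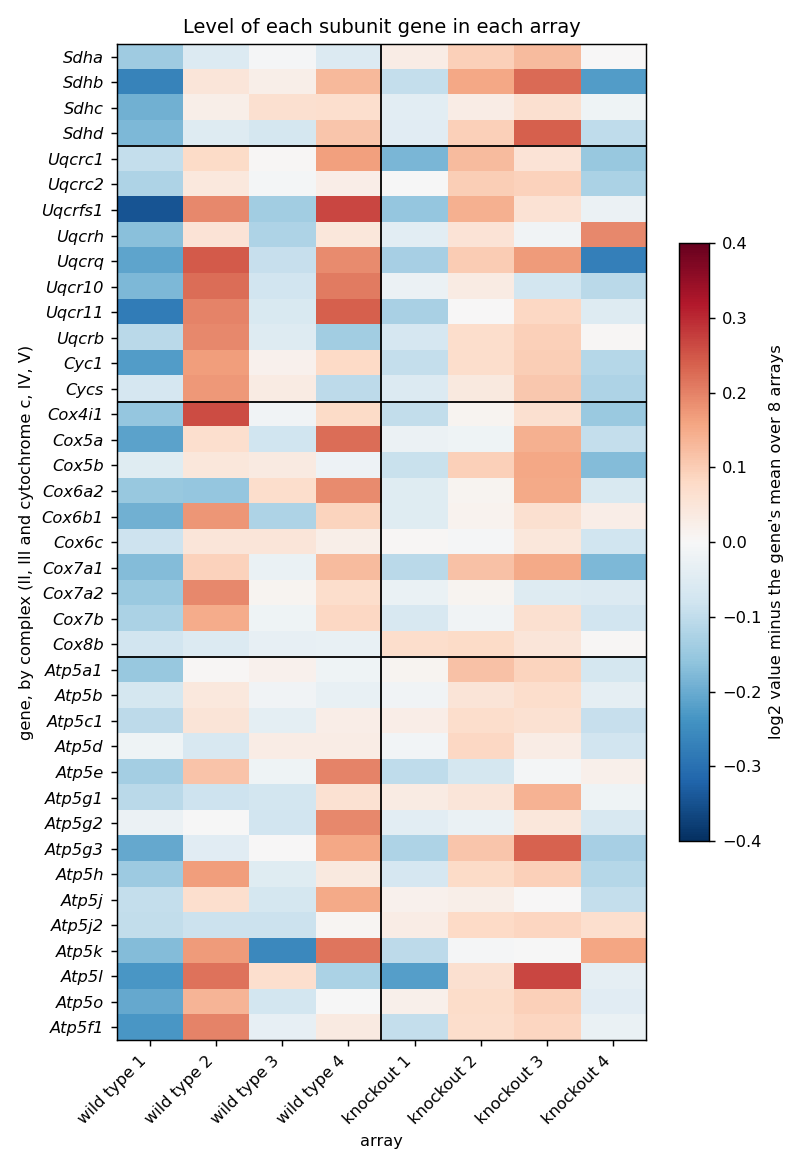
Each row is a subunit gene, grouped by complex, and each column an array; colour gives the log2 value minus the gene's mean over the 8 arrays, from blue (below) to red (above). Wild type 1 is blue for all 39 genes, and wild types 2 and 4 and knockouts 2 and 3 are mostly red, a pair of arrays from each genotype.

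The arrays with high subunit levels were those with high levels of slow-fibre genes. The mean of 10 slow-fibre genes (among them Myh7, the slow myosin heavy chain, and Tnnt1 and Tnni1, slow troponins) was 6.40, 8.27, 6.60 and 8.18 in wild types 1 to 4 and 7.33, 8.48, 8.85 and 5.53 in knockouts 1 to 4. The 4 arrays highest on this list, wild types 2 and 4 and knockouts 2 and 3, were the 4 in which the median deviation of the subunit genes was above 0. Between genotypes, 7 of the 10 slow-fibre genes lay above 0 and 3 below, with a median difference of 0.30, and none passed the threshold or reached an unadjusted limma p under 0.05. Their intervals ran from -2.02 to 2.41, so a difference of the list between genotypes was not measured closely. Its summed level was 64.0 to 82.7 in wild type and 55.3 to 88.5 in knockout. Fast-fibre genes averaged 11.87, 11.98, 11.95 and 11.94 in wild types 1 to 4 and 11.81, 11.97, 11.99 and 11.64 in knockouts 1 to 4. The arrays lowest on this list, wild type 1 and knockouts 1 and 4, were also low in subunit genes, while wild type 3 was not low on it. Within the list Myh2 ran from 9.03 in knockout 4 to 11.52 in knockout 2, and Myh1 from 10.28 to 11.44 in the same arrays. Every other gene of the list read higher in knockout 4 than in knockout 2. Mybpc2 read 11.91 against 11.70 and Pvalb 12.23 against 12.09, while Myh4 spread over only 0.108 log2 units. The low means of this list in wild type 1 and knockouts 1 and 4 thus came with low Myh1 and Myh2, and not with the list as a whole. With the slow-fibre mean as a covariate, 21 of the 39 differences lay above 0, with a median of 0.01 and a smallest limma adjusted p of 0.822.

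**Figure D4:**
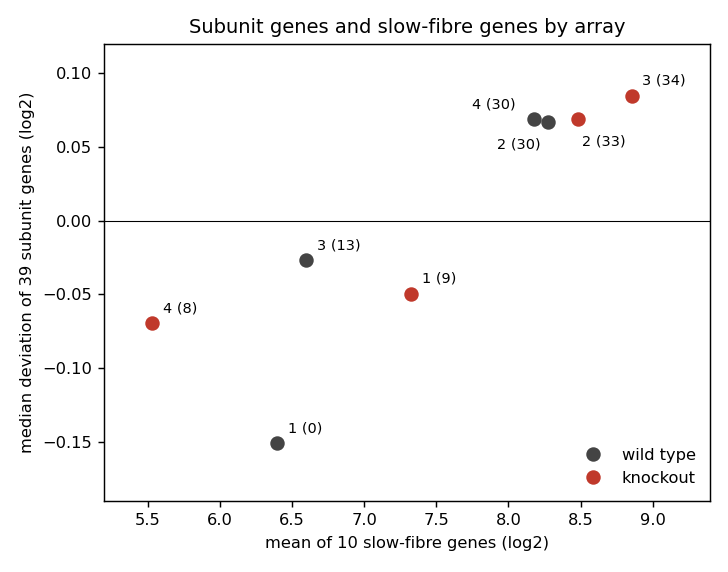
Median deviation of the 39 subunit genes in each array (log2, y axis) against the mean of 10 slow-fibre genes (log2, x axis); labels give the replicate and, in brackets, how many of the 39 lay above their own mean. The 4 arrays above 8 on the x axis, a pair from each genotype, lie above 0 on the y axis, and the 4 others lie below.

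Macrophage markers were read beside these results. Their mean over 15 genes was 5.16, 5.17, 5.27 and 5.15 in wild type and 5.37, 5.29, 5.53 and 5.91 in knockout, so that the lowest knockout (5.29) stood barely above the highest wild type (5.27) and knockout 4 was far the highest. Gpnmb, Lgals3 and Cd68 read 9.09, 7.75 and 7.35 in knockout 4, and no more than 6.59, 6.47 and 6.18 in any other array. The list was not uniform there, since Cd163 and Cd14 had their lowest values of all arrays in knockout 4 (4.22 and 3.90). Csf1r (5.998) and C1qa (5.55) were lower in knockout 4 than in any other knockout. The summed level was 77.3 to 79.1 in wild type and 79.3 to 88.6 in knockout. Of the 15 genes, 13 lay above 0, 6 had an unadjusted limma p under 0.05 (40.0%, against 5.73% of all genes), and 0 passed after adjustment. With this mean as a covariate, 31 of the 39 subunit differences lay above 0, with a median of 0.06, and none passed. Since the mean did not overlap between the genotypes, this fit cannot tell it apart from genotype. The part of the macrophage mean in the differences of Sdha, Cox8b and Atp5j2 was not tested beyond that. Among the other cell types, adipocyte markers averaged 4.90 to 5.63 in wild type and 4.96 to 5.81 in knockout, and Ucp1, which defines brown fat, read 2.71 to 3.30 over the 8 arrays. Endothelial markers averaged 7.12 to 7.68, fibroblast markers 7.47 to 7.69 and erythroid markers 4.62 to 4.90, with no gene of these lists past the threshold.

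How many subunit genes lay above 0 depended on single arrays. The count was 12 of 39 without wild type 1, the array lowest in these genes, and 30 without knockout 4. It was 16 without knockout 3, 29 without wild type 4, 28 without wild type 2, and 19, 20 and 27 without knockout 2, wild type 3 and knockout 1. With array weights it was 35, where wild type 2 received the lowest weight (0.323). The median over the 39 ranged from -0.04 to 0.08 over all alternatives. Sdha, Cox8b and Atp5j2 kept their sign in all 18 alternatives in which they were fitted, with estimates of 0.10 to 0.15, 0.09 to 0.13 and 0.12 to 0.15 and adjusted limma p no smaller than 0.719.

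Other genes of the same machinery were counted in the same fit. Of 11 further isoforms and subunits of complexes IV and V, 8 lay above 0 and 3 below, and 0 passed; Cox6a1, above, had the smallest p and was the only gene with an unadjusted limma p under 0.05. Of 6 genes encoded in mitochondrial DNA 1 was measured alone, mt-Co2, a copper-binding subunit of complex IV. It read 12.12, 12.34, 12.08 and 12.15 in wild type and 12.03, 12.16, 12.20 and 12.12 in knockout, a difference of -0.05 (limma adjusted p = 0.954). Of 35 assembly factors 31 were measured, 15 above 0 and 16 below. None passed after adjustment, and 1 of the 31 (3.23%, against 5.73% of all genes) had an unadjusted limma p under 0.05.

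That gene was Cox18, whose product inserts part of Cox2 into the inner membrane. Cox18 read 7.72, 7.99, 7.75 and 8.39 in wild type and 7.36, 7.39, 7.28 and 7.42 in knockout. The groups did not overlap, and the knockouts lay within 0.14 of each other while wild type 4 stood high. The means were 7.96 ± 0.31 and 7.36 ± 0.06 (SD, n = 4), a difference of -0.60 (SE 0.13, 95% interval -0.89 to -0.31, limma unadjusted p = 0.000712, adjusted p = 0.358). It kept its sign in all 18 alternatives, between -0.68 and -0.45, with adjusted p from 0.214 to 0.9997. It is the gene of this list with the smallest p, and it did not pass.

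Of 15 regulators of respiratory genes, among them the coactivator Ppargc1a, the factors Nrf1, Gabpa and Yy1 and the receptor Esrra, 6 lay above 0 and 9 below. The only one past the threshold was Kat2a, the deleted gene. Ppargc1a, named here after its values were seen, read 8.77, 9.01, 9.51 and 9.09 in wild type and 8.65, 8.81, 9.13 and 8.43 in knockout. Its groups overlapped, and the difference was -0.34 (SE 0.17, limma unadjusted p = 0.0656, adjusted p = 0.869).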

How the data were processed

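The deposited values were log2 expression values, which the authors made with Affymetrix Expression Console by RMA, according to the submitters' processing notes. Its version and settings and the array's build are not given in the sources used here. RMA equalises the arrays' distributions and compresses differences of dim transcripts, among which the members do not fall. The table held 35556 transcript clusters, of which 21789 had 1 symbol, 1621 several and 12146 none. Of those with 1 symbol, 21698 matched RefSeq's GRCm38.p6 gene table by Entrez number. The highest-mean cluster represented each of the 999 genes with several, giving 19938 genes. Dim genes were kept. The medians of the arrays were 4.61 to 4.72, and single values ran from 0.754 to 13.2.

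Knockout and wild type, grouped by the labels' genotype, were compared over all genes with lmFit and eBayes of limma 3.58.1 (R 4.3.3), with 6 residual and 6.26 prior degrees of freedom, p-values adjusted by Benjamini-Hochberg over the whole table and called under 0.05. The median SE of a difference was 0.105 over all genes and 0.0937 over the members. The steps were tested on simulated data. Isoform ratios used exact permutation (scipy 1.17.1). Figures used matplotlib 3.10.9 (Python 3.11.15).

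The members, lists and tests were chosen with earlier results of these data known. Named genes were the muscle isoforms and their partners, the 3 members of each complex with the smallest p, any member past the threshold, and from each other list up to 2 genes past it or else the 1 with the smallest p; the remaining members are given by their differences. Alternatives were quantile, median and cyclic loess normalization, averaging a gene's clusters, array weights, a robust prior with an intensity trend, a replicate block, leaving out each array or wild type 2 with knockout 4, slow-fibre and macrophage covariates, leaving out the dimmest 25% of genes and a threshold of 0.1. Arrays with the same replicate number were not taken as pairs: the correlations of their deviations from the group means ran from -0.103 to 0.222. Motifs were searched in RefSeq promoters of GRCm38.p6.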

Additional observations from a re-analysis of the deposited data

Results flagged for a closer look

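Of 54 sets of 4 arrays tested for a lone extreme value, 2 had one by Dixon's criterion, which chance gives in about 1 of 20 sets. Atp5j2 in wild type 4 read 10.21 (log2), above the other wild types at 10.10 to 10.11 and just below the lowest knockout at 10.23. Cox8a in knockout 3 read 7.998, above the other knockouts at 7.72 to 7.75.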

How the results depend on the processing

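No subunit gene passed the threshold in any of 20 alternatives. The number of calls over all genes, 3 in the reported analysis, was 17 with an intensity trend and robust prior, 1 without wild type 2 and knockout 4 together, 0 with the macrophage covariate, 11 without the dimmest 25% of genes, 16 at a threshold of 0.1, and 0 to 5 without single arrays. With the replicate block it was 0 over all genes and 0 among the members, and 4 of 8 arrays correlated best with the array of their own number. The medians over the members and over each complex moved by less than the spread between arrays under every alternative, though that spread is wide beside them and all but that of complex II changed sign under some. They ran from -0.0415 to 0.0768 over the members, 0.0037 to 0.1655 in complex II, -0.0986 to 0.0787 in complex III with cytochrome c, -0.0592 to 0.0399 in complex IV and -0.0134 to 0.0913 in complex V.

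Directions of small differences reversed as follows. Cox7a1 was 0.0056 with cyclic loess, 0.0519 with array weights, 0.0768 without wild type 2 and knockout 4, 0.1082 with the macrophage covariate, and -0.0692 to 0.0477 without single arrays. Cox8a was -0.0057 with median centring, -0.0439 with array weights, -0.0400 without wild type 2 and knockout 4, -0.0189 with the macrophage covariate, and -0.0636 to 0.0470 without single arrays. Uqcr10 (0.0032) and Cox7a2 (0.0025) reversed with array weights. Cox7a2 (0.0001), Cox4i1 (0.0230) and mt-Co2 (0.0108) reversed without wild type 2 and knockout 4. Uqcrc1 was 0.0159 with the macrophage covariate. Without single arrays, Sdhb ran from -0.0522 to 0.1104, Cox6a2 from -0.0231 to 0.0907, mt-Co2 from -0.0783 to 0.0086 and the ratio of Cox7a1 to Cox7a2 from -0.0084 to 0.1010. The cause was not tested. The call of Kat2a was lost in 9 of 18 alternatives at differences of -0.68 to -0.61. The intensity trend was not run for the isoform ratios, since it does not change their values. With 4 arrays a group, a change of a member within its interval was not excluded. These intervals are not limits of detection, since larger changes also went uncalled. Cox18, which is not a member, differed by -0.60 with an interval from -0.89 to -0.31 and did not pass (limma adjusted p = 0.358). Signal over background could not be read from this table.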

Other observations

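Genes left out of the counts because their clusters carry 2 symbols gave values near those of their complexes. Cox7c, a small subunit of complex IV, shared 3 clusters with the symbol Gm12338, which differed by -0.04, -0.02 and -0.06 (log2, knockout minus wild type). The first of them read 11.57 ± 0.13 in wild type and 11.53 ± 0.10 in knockout (SD, n = 4), and the groups overlapped. ATP6, the mitochondrially encoded subunit a of complex V, shared 2 clusters with Gm10925, at -0.02 and -0.03.

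Among the other clusters of the subunit genes, the third cluster of Cycs averaged 4.26 over the arrays and differed by -0.32, whereas its 2 brighter clusters differed by -0.02 and -0.03. The assembly factor Cox20, named here after its values were seen, was the only one of 31 with every knockout above every wild type. That is 3.23% of the list, against 1.48% of all genes, and a single gene says little about the list. Cox20 read 7.90, 7.85, 7.80 and 7.88 in wild type and 7.93, 7.95, 7.96 and 8.18 in knockout. The difference was 0.14 (SE 0.09, limma adjusted p = 0.876).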
